A study of Mus musculus with 22 samples.

Results

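The 9 genes described here are Ifitm1, Ifitm2, Ifitm3, Ly6e, Ly6a, Ly6c1, Bst2, Irf1 and Irf8, taken by name from the 24454 genes of a count table made from small pools of mouse embryonic cells. They were not chosen by a threshold on these counts. Earlier results of these data were known when they were chosen, and the study had described Ifitm1 and Ly6e in these libraries. Counts of the 9 set beside all genes are therefore a description and are not independent of that choice. The pools came from the aorta-gonad-mesonephros (AGM) region of C57BL/6 embryos, where the first blood stem and progenitor cells arise from the wall of the dorsal aorta. Each of the 22 RNA-seq libraries was made from 25 cells that carried VE-Cadherin, the endothelial adhesion molecule encoded by Cdh5, and that were sorted further on the surface proteins CD44 and Kit. CD44Neg cells, labelled endothelial, gave 4 libraries at embryonic day (E) 9.5, 3 at E10 and 3 at E11. CD44LowKitNeg cells, spelled CD44LoKitNeg in the labels and named there as hemogenic endothelium, gave 1, 2 and 3 libraries at the same days. CD44LowKitPos cells, labelled pre-HSPC (precursors of hematopoietic stem and progenitor cells), were represented by 3 libraries, 2 of E10 and 1 of E9.5. CD44High cells, labelled HSPC, gave 3 libraries at E11. The cells were neither cultured nor treated, and the labels do not say how many embryos a pool came from or whether pools of 1 group shared embryos. The p-values therefore measure only the spread between these libraries.

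The IFITM proteins sit in cell and endosomal membranes and hinder the entry of enveloped viruses. Bst2 encodes tetherin, which holds budding virus particles at the cell surface. LY6 proteins are small surface proteins held by a lipid anchor, among them Ly6a, the antigen Sca-1 used to sort adult blood stem cells, and Ly6e and Ly6c1, which mark other blood and endothelial cells. Irf1 and Irf8 are transcription factors of the interferon regulatory factor family, Irf1 acting widely after interferon and Irf8 in the monocyte and dendritic cell lineages. Interferons bind receptors on the cell surface and signal through JAK kinases to STAT proteins. STAT dimers bind the GAS element, and complexes of STAT and IRF proteins bind the interferon-stimulated response element (ISRE).

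The 3 IFITM genes lie together within 55.9 kb of chromosome 7 (GRCm38, 140954837 to 141010744), and the 3 LY6 genes lie within 93.9 kb of chromosome 15 (74955025 to 75048920). Bst2 (71534255 to 71537472) and Irf8 (120736358 to 120756694) are on chromosome 8, and Irf1 (53770014 to 53778374) is on chromosome 11. RefSeq start windows of 300 bases, 250 before and 50 after each annotated start, were at hand for 7 of the 9 genes and not for Ly6e and Ly6a. An ISRE core, written GAAANNGAA and searched on both strands, was found in the windows of Ifitm2, Ifitm3 and Bst2. It occurred in 2638 of 27025 genes with a window (9.76%) and in 25 of 40 genes of a list of interferon-stimulated genes (62.5%). A GAS element, written TTCNNNGAA and likewise searched on both strands, was found in the windows of Ifitm3, Bst2, Irf1 and Irf8, against 2582 of all 27025 genes (9.55%). The stretches that hold the matches are printed because the 3 genes with an ISRE core had their highest mean in CD44LowKitNeg cells at E11 and the other 4 genes with a window did not. That split is a description of 7 genes and was not tested. In the tests below, Ifitm3 alone of the 3 was called between CD44LowKitNeg and CD44Neg cells at E11. Of 39 tested genes of the interferon-stimulated list, 0 were called there. Each printed stretch runs 5′ to 3′ on the gene's strand, and capitals mark the matched bases.
Ifitm2, chr7:140955962-140956051, minus strand, 90 to 1 bases before the start: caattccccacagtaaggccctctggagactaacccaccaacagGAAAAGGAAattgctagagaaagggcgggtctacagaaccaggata
Ifitm3, chr7:141010715-141010804, minus strand, 60 bases before to 30 after the start: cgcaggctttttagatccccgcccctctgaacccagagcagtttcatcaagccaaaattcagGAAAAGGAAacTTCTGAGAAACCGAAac
Bst2, chr8:71537543-71537632, minus strand, 160 to 71 bases before the start: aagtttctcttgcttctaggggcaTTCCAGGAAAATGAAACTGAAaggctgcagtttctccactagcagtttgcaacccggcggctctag
Irf1, chr11:53769894-53769983, plus strand, 120 to 31 bases before the start: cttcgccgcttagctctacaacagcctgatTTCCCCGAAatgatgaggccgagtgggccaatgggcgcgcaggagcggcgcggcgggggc
Irf8, chr8:120736158-120736247, plus strand, 200 to 111 bases before the start: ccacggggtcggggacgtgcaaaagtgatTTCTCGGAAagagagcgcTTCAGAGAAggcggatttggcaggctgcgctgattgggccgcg

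In Ifitm3 the ISRE cores stand at positions 3 to 11 and 20 to 28 after the RefSeq start, and a GAS element at 14 to 22 overlaps the later of them. The GENCODE start of Ifitm3 lies 26 bases upstream, so both annotations put these bases in the transcript. In Bst2 a GAS element at positions -136 to -128 overlaps an ISRE core at -130 to -122, which overlaps another at -124 to -116. Ifitm2 holds 1 ISRE core, at -46 to -38. A match of letters is a description of the window and not a measured binding site. Neither motif was found in the windows of Ifitm1 and Ly6c1, which says only that these letters are not there.

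The libraries held 3912350 to 8657546 counts, of which the 45S ribosomal RNA gene Rn45s took 1.92% to 23.9%. Levels are given as normalized CPM, the usual library-size scaling of counts with TMM factors (trimmed mean of M-values), and 3 counts, the upper limit that a count of 0 allows, correspond to 0.348 to 0.816 CPM per library. These limits cover counting error only. The sort was visible in the transcripts. Cd44 averaged 37.1 CPM in CD44Neg cells of E9.5 and E10 and 12.8 at E11, against 196 to 312 in the other groups. Kit, the receptor for stem cell factor, averaged 230 CPM in CD44LowKitPos cells against 42.3 in CD44LowKitNeg cells of the same days. Cdh5 itself was at 0 counts in all 3 CD44High libraries and averaged 1051 CPM in CD44LowKitNeg cells at E11. Runx1, the transcription factor required for blood formation from endothelium, averaged 76.3 CPM in CD44LowKitNeg cells of E9.5 and E10 and was at 0 in all 3 such libraries at E11, although these too are labelled hemogenic endothelium. Ptprc, the pan-leukocyte CD45 gene, averaged 78.6 CPM in CD44LowKitPos and 415 in CD44High cells. The CD44High libraries also held all 8 macrophage markers examined, with summed levels of 3270, 4280 and 4902 CPM. The sum was 164 to 222 CPM in CD44LowKitPos, where C1qa, C1qb, C1qc and Adgre1 were at 0, and at most 57.8 in the remaining libraries. Each date in the labels belongs to 1 embryonic day, so day and date cannot be told apart. In pools, a lower share of expressing cells and a lower amount per cell cannot be told apart either.

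The question put to the data was how these interferon-linked genes change as VE-Cadherin positive cells gain CD44 and Kit on the way to blood. The genes fell into contrasting profiles. Ifitm2, Ifitm3 and Bst2 had their highest group mean in CD44LowKitNeg cells at E11 and their lowest means in CD44High or CD44Neg cells. Ifitm1, Ly6e, Irf1 and Irf8 had their highest group mean in CD44High cells. Ly6a and Ly6c1 reached at most 5.88 and 6.43 CPM in any library.

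**Figure D1:**
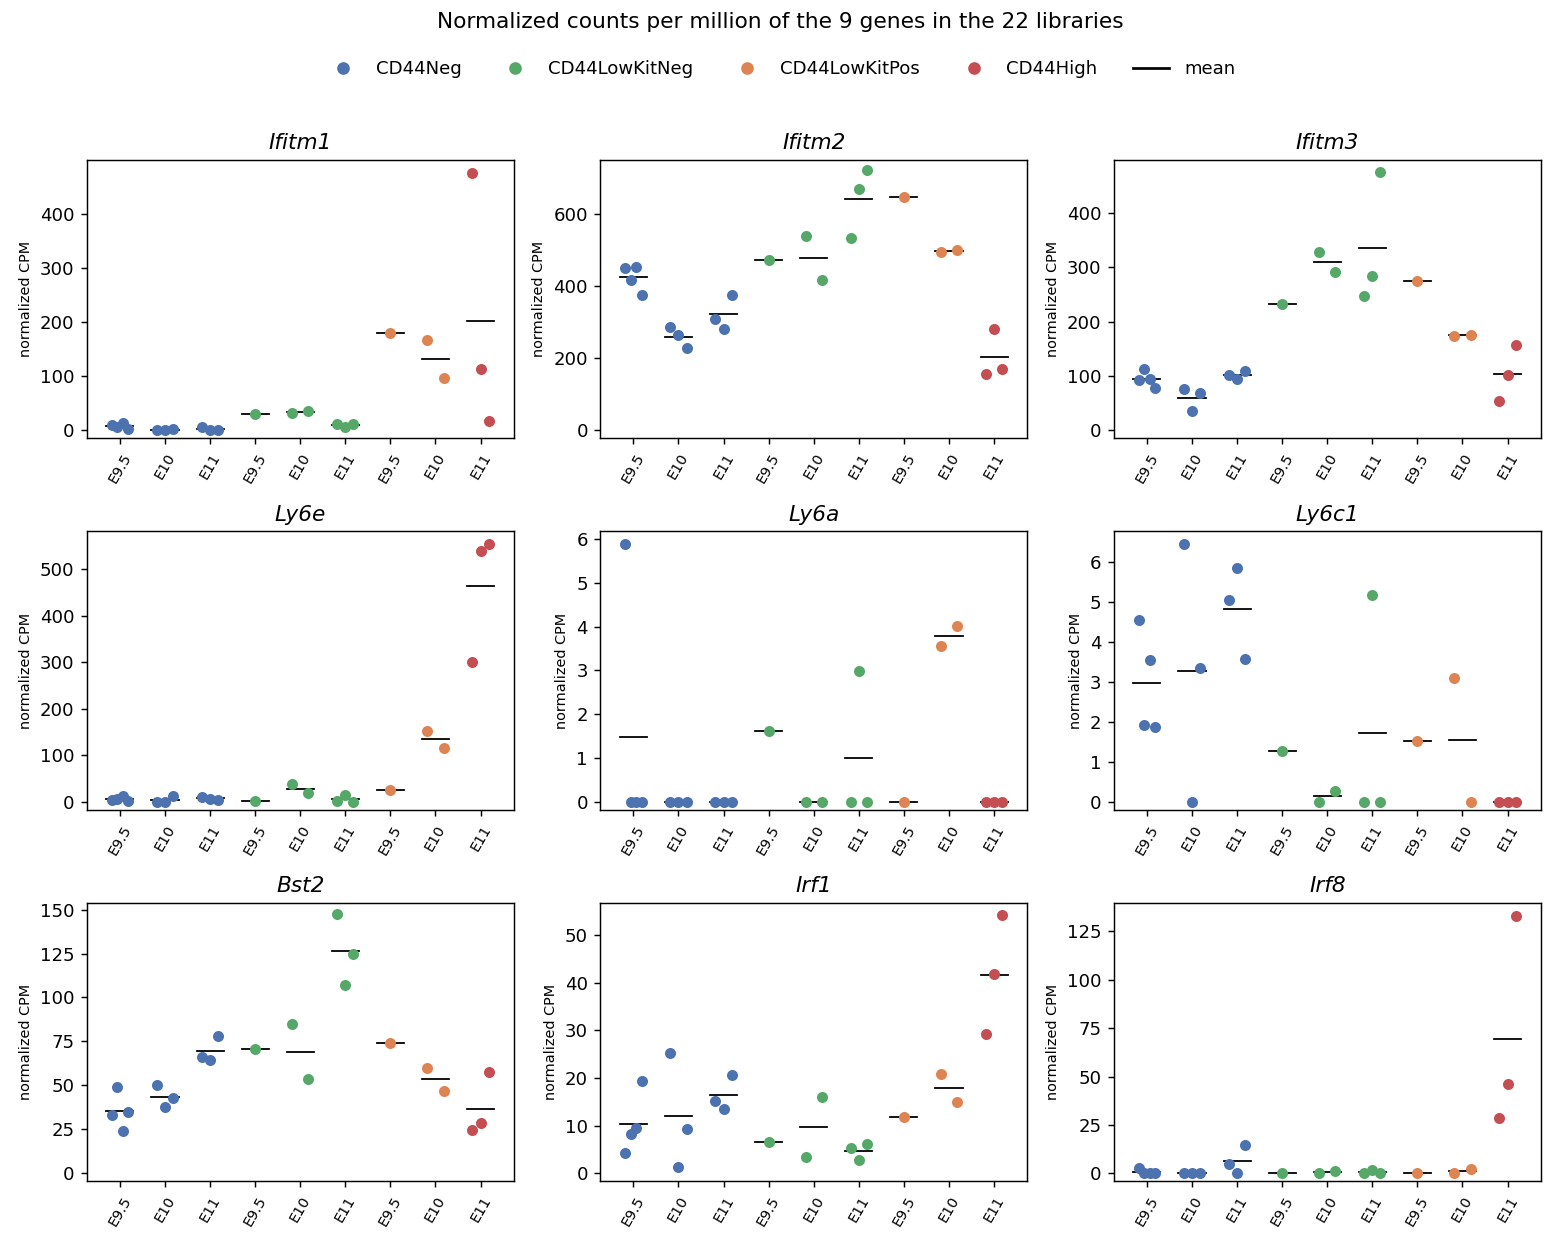
Normalized CPM of each gene (vertical axes, linear and scaled per gene) in every library, 1 point per library, ordered by population (colour) and embryonic day (horizontal axis), with black lines for means. Ifitm3 and Bst2 are highest among the green CD44LowKitNeg points, Ly6e and Irf8 among the red CD44High points, and the 3 CD44High points of Ifitm1 spread from 17.4 to 476 CPM.

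Tests were run with edgeR's quasi-likelihood test in 1 fit of 6 groups over 12949 genes, with the E9.5 and E10 libraries of a population in 1 group, and a gene was called at a Benjamini-Hochberg adjusted p under 0.01. All 9 genes passed the filter on low counts. Between CD44LowKitNeg and CD44Neg cells of E9.5 and E10, 1 of the 9 was called, Ifitm3, against 2.2% of all genes tested. At E11 the same pair of populations again gave 1 call, Ifitm3, against 2.89% of all genes. Between CD44LowKitPos and CD44Neg cells of E9.5 and E10, 3 were called, all higher in CD44LowKitPos, against 2.95%. Between CD44High and CD44LowKitNeg cells at E11, 6 were called, 3 higher and 3 lower in CD44High, against 18.5%. Between CD44High and CD44Neg cells at E11, 2 were called, against 9.92%, and between CD44High cells at E11 and CD44LowKitPos cells of the earlier days 1 was called, against 3.42%. No gene of the 9 was called between CD44LowKitPos and CD44LowKitNeg cells, where 0.494% of all genes were. At an unadjusted p under 0.05 that comparison held 1 of the 9, Ifitm1, and 2609 of all 12949 genes, and the Wald test of DESeq2 called none.

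**Figure D2:**
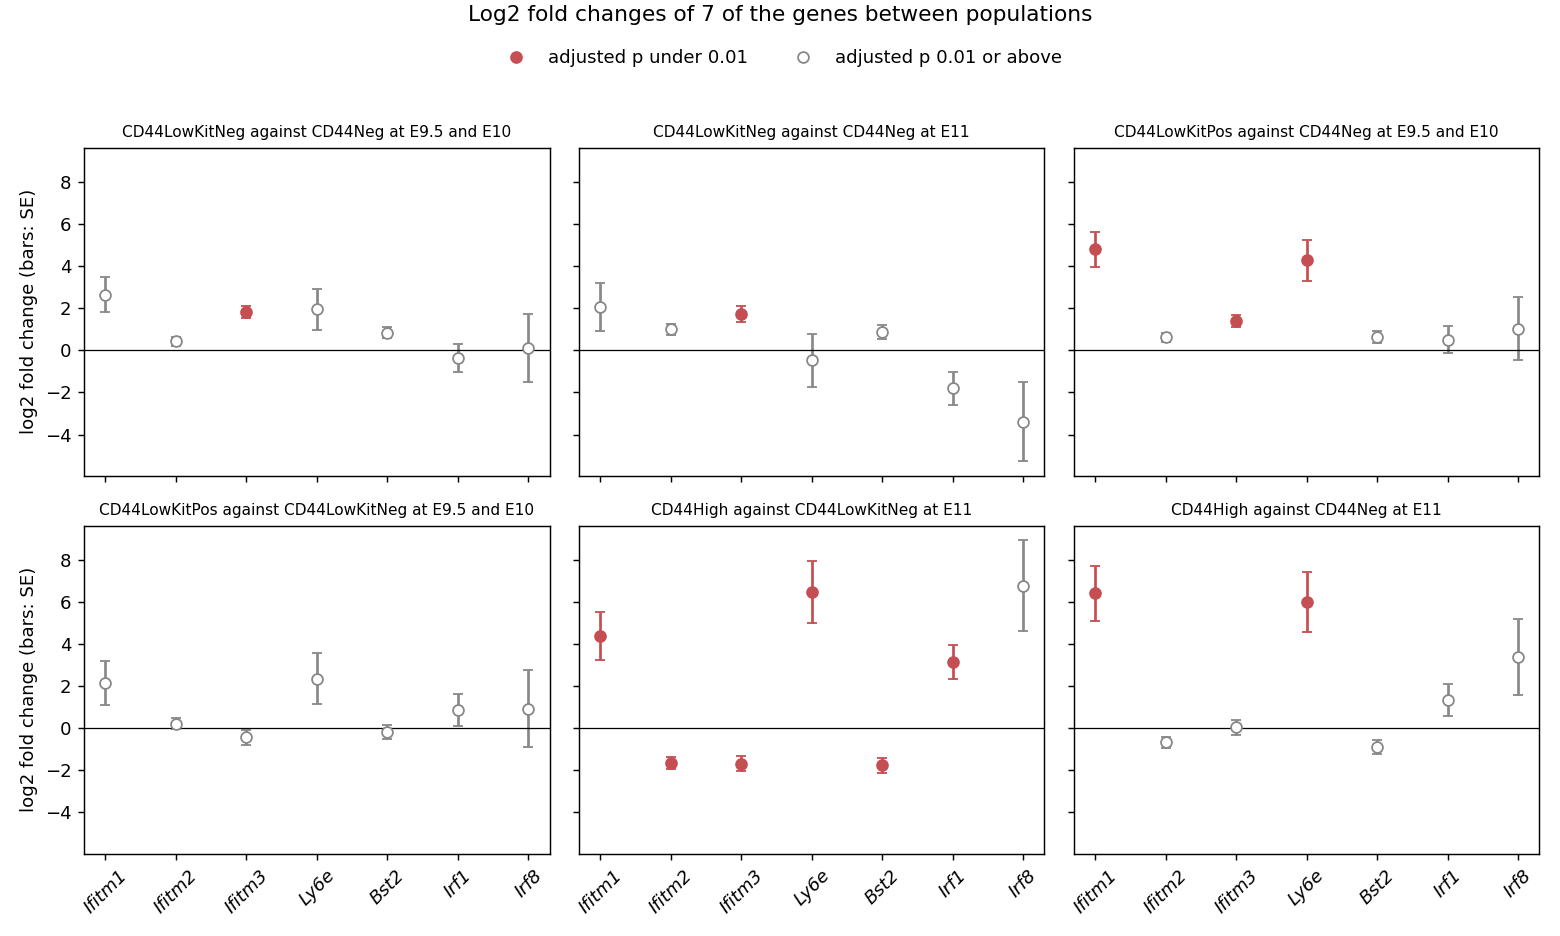
Log2 fold changes (vertical axis) with standard errors of 7 of the 9 genes in 6 comparisons between populations, filled red where the adjusted p is under 0.01. Ly6a and Ly6c1 are left out because most of their counts are near 0. Ifitm3 is the gene called in both comparisons of CD44LowKitNeg with CD44Neg cells, and in CD44High against CD44LowKitNeg cells 3 genes lie above and 3 below the zero line with a call.

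Ifitm3, an antiviral protein of endosomal membranes, was the gene of the 9 called between CD44LowKitNeg and CD44Neg cells at both stages. In the 7 CD44Neg libraries of E9.5 and E10 it ranged from 36.0 to 112 CPM with a median of 78.6. The 3 CD44LowKitNeg libraries of those days held 232 at E9.5 and 327 and 291 at E10. Each day separated by itself, since the CD44Neg libraries reached 112 at E9.5 and 75.8 at E10. The log2 fold change was 1.83 ± 0.29 (SE), or 3.56-fold, with an adjusted p of 0.00116. At E11 the CD44Neg libraries held 101, 93.8 and 109 CPM and the CD44LowKitNeg libraries 248, 283 and 476. The E11 difference was 1.73 ± 0.37 (SE) on the log2 scale with an adjusted p of 0.00577. That E11 call was lost, at adjusted p of 0.0184 to 0.0387, when CD44Neg replicate 1, 2 or 3 or CD44LowKitNeg replicate 13 was left out, while the log2 change stayed between 1.41 and 1.83. The CD44LowKitNeg libraries also held more of a 4-gene neural marker list, summing to 237 to 683 CPM at E11 against 65.5 to 107 in CD44Neg, with Sox2 and Elavl3 at 0 in CD44LowKitNeg and Elavl3 at 0 in CD44Neg. At the earlier days it summed to 111 to 245 CPM in CD44LowKitNeg and 20.7 to 52.3 in CD44Neg, with Sox2 and Elavl3 at 0 in both. A 4-gene epithelial list moved with it, summing to 27.4 to 87.2 CPM in CD44LowKitNeg and 0 to 1.95 in CD44Neg at E11, with Epcam and Cdh1 at 0 in both, and to 26.5 to 49.3 and 0 to 33.5 CPM at the earlier days. A 6-gene mesenchyme list summed at E11 to 27.2 to 69.1 CPM in CD44LowKitNeg, with Col1a1 at 0, and 0.310 to 17.2 in CD44Neg, with Col1a1, Twist1 and Dcn at 0. At the earlier days it overlapped, at 2.16 to 15.4 and 0 to 36.7 CPM. The 6 committed blood markers summed at the earlier days to 76.0 to 250 CPM in CD44LowKitNeg, with Ptprc at 0, and 6.69 to 33.7 in CD44Neg, with Ptprc and Rac2 at 0, and overlapped at E11 (3.75 to 16.1 and 4.67 to 18.1 CPM). The macrophage sums were 28.4 to 57.8 and 0 to 10.3 CPM at the earlier days. The part of these lists in the Ifitm3 differences was not tested.

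Ifitm3 was also higher in CD44LowKitPos cells, with 174, 176 and 275 CPM, than in CD44Neg cells of the same days. This log2 fold change was 1.39 ± 0.29 (SE) with an adjusted p of 0.00489. Leaving out CD44Neg replicate 8 or 10 or any of the 3 CD44LowKitPos libraries moved the adjusted p to between 0.0107 and 0.0285. Marker lists also separated these groups. Committed blood markers summed to 371 to 1221 CPM in CD44LowKitPos against 6.69 to 33.7 in CD44Neg, granulocyte markers to 70.1 to 233 against 0 to 5.59, and 4 megakaryocyte markers to 33.5 to 148 against 2.45 to 16.1. Epithelial markers summed to 64.5 to 74.2 CPM against 0 to 33.5, and 6 endothelial markers to 488 to 1215 against 2200 to 3547. S100a8, S100a9 and Cdh1 were at 0 in CD44LowKitPos, and the part of these lists in its Ifitm3, Ifitm1 and Ly6e levels was not tested. In CD44High cells Ifitm3 fell back to 54.4, 103 and 156 CPM, lower than in CD44LowKitNeg cells at E11 by 1.68 ± 0.37 (SE) on the log2 scale, with an adjusted p of 0.00145 that became 0.0104 without CD44LowKitNeg replicate 13. The CD44High libraries overlapped those of CD44Neg cells at E11, and the adjusted p between them was 0.967. Endothelial markers summed to 14.3 to 65.0 CPM in CD44High and 5445 to 5982 in CD44LowKitNeg cells at E11. Neural markers summed to 0 to 12.3 and 237 to 683, and epithelial ones to 4.35 to 19.8 and 27.4 to 87.2. Sox2, Elavl3 and Cdh1 were at 0 in both. Committed blood, macrophage and granulocyte sums went the other way. The part of these lists in the lower Ifitm3, Ifitm2 and Bst2 levels was not tested.

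Ifitm2, a close relative of Ifitm3, was abundant in every library. The CD44Neg libraries of E9.5 and E10 ranged from 228 to 453 CPM with a median of 375. Within that group the 4 libraries of E9.5 held 375 to 453 CPM and the 3 of E10 held 228 to 286, so the days did not overlap. CD44LowKitNeg libraries held 471 at E9.5, 539 and 417 at E10, and 533, 668 and 721 at E11. On each of the earlier days they lay above all CD44Neg libraries, but the days pooled overlapped, with an adjusted p of 0.241. The E11 libraries of CD44LowKitNeg cells lay above the 309, 280 and 376 CPM of CD44Neg cells at E11, by 0.99 ± 0.27 (SE) on the log2 scale, with an adjusted p of 0.0252 that missed the threshold. It passed in 2 alternative fits, with a log2 change of 1.10 and an adjusted p of 0.00103 in the Wald test of DESeq2 and an adjusted p of 0.00693 with 9 means of population and day. CD44LowKitPos libraries held 493, 500 and 647 CPM.

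Ifitm2 had its lowest group mean in CD44High cells, at 157, 280 and 168 CPM. These overlapped the CD44Neg libraries of E11, with an adjusted p of 0.0876. Every CD44High library lay below every CD44LowKitNeg and CD44LowKitPos library. The log2 difference from CD44LowKitNeg cells at E11 was -1.67 ± 0.27 (SE) with an adjusted p of 8.09e-05, and it was called in every alternative fit. The log2 difference from CD44LowKitPos cells, which also differ in day, was -1.44 ± 0.27 (SE) with an adjusted p of 0.00132. It became 0.0119 without CD44High replicate 22. Counts of Ifitm2 are uncertain in scale, since 48.5% of its stretches of 50 bases also occur in other annotated genes, mostly the overlapping gene Gm45717 on the same strand and IFITM-related Gm loci. The same share was 10% for Ifitm3 and 5.02% for Ifitm1.

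Ifitm1, the third IFITM gene, followed another course. In CD44Neg cells it was low, from 0 to 14.2 CPM with a median of 3.01 in the 7 libraries of E9.5 and E10, and 6.36, 0 and 1.24 at E11. CD44LowKitNeg libraries held 30.9 at E9.5 and 32.9 and 36.0 at E10, all above every CD44Neg library. This difference was 2.65 ± 0.82 (SE) on the log2 scale with an adjusted p of 0.0457, above the threshold, and 3.48 with 9 means of population and day. At E11 CD44LowKitNeg cells held 11.4, 6.08 and 11.9 CPM, a lower range that overlapped that of CD44Neg cells. The committed blood sum given above moved the same way, from 76.0 to 250 CPM in CD44LowKitNeg cells at the earlier days to 3.75 to 16.1 at E11, and its part in these Ifitm1 levels was not tested.

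CD44LowKitPos cells held 180 CPM of Ifitm1 at E9.5 and 166 and 96.5 at E10. These lay above all CD44Neg libraries of each day, which reached 14.2 at E9.5 and 1.56 at E10, by 4.80 ± 0.84 (SE) on the log2 scale, with an adjusted p of 0.00114. The call held in all 26 alternative fits, with a log2 change of 5.71 with 9 means. They also lay above every CD44LowKitNeg library, but that log2 difference did not pass, with an adjusted p of 0.247. Of all genes, 26.1% did not overlap in that comparison, and Ifitm1 was the 1 of the 9 that did not. CD44High libraries spread from 476 and 114 to 17.4 CPM, and still lay above the CD44LowKitNeg libraries of E11, as 4 of the 9 genes did while 3 lay below (42.5% of all genes did not overlap). They overlapped the CD44LowKitPos libraries, with an adjusted p of 0.891. Ifitm1 was called in CD44High cells against CD44LowKitNeg (4.37 ± 1.14 SE, adjusted p 0.00577) and against CD44Neg (6.41 ± 1.30 SE, adjusted p 0.00114). Without CD44High replicate 20, the library at 476 CPM, these became 2.62 (adjusted p 0.0963) and 4.69 (adjusted p 0.0129). The call against CD44LowKitNeg was also lost without any 1 of the 3 CD44LowKitNeg libraries (adjusted p 0.0216 to 0.0312), and that against CD44Neg without CD44Neg replicate 3 (0.0119). The log2 change against CD44Neg was 8.21 without CD44Neg replicate 1 and 5.80 without replicate 2.

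Bst2, like Ifitm3, had its highest mean in CD44LowKitNeg cells at E11. The CD44Neg libraries of E9.5 and E10 ranged from 24.2 to 50.3 CPM with a median of 37.8, and those of E11 held 66.0, 64.6 and 77.9. CD44LowKitNeg libraries held 70.6 at E9.5, 84.8 and 53.8 at E10, and 148, 107 and 125 at E11. At both stages every CD44LowKitNeg library lay above every CD44Neg library, as it did for 3 of the 9 genes in that direction at E9.5 and E10 (13% of all genes did not overlap in either direction) and 3 at E11 (30.2%). The adjusted p was 0.0529 for the earlier days and 0.120 at E11, so neither difference was called. CD44LowKitPos libraries held 60.02, 47.1 and 74.2 CPM. CD44High libraries held 24.7, 28.5 and 57.4 CPM, lower than CD44LowKitNeg cells at E11 by 1.78 ± 0.34 (SE) on the log2 scale, with an adjusted p of 0.000395, and this call held in all 26 alternative fits. The CD44High libraries also lay below all 3 CD44Neg libraries of E11, with an adjusted p of 0.0607.

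**Figure D3:**
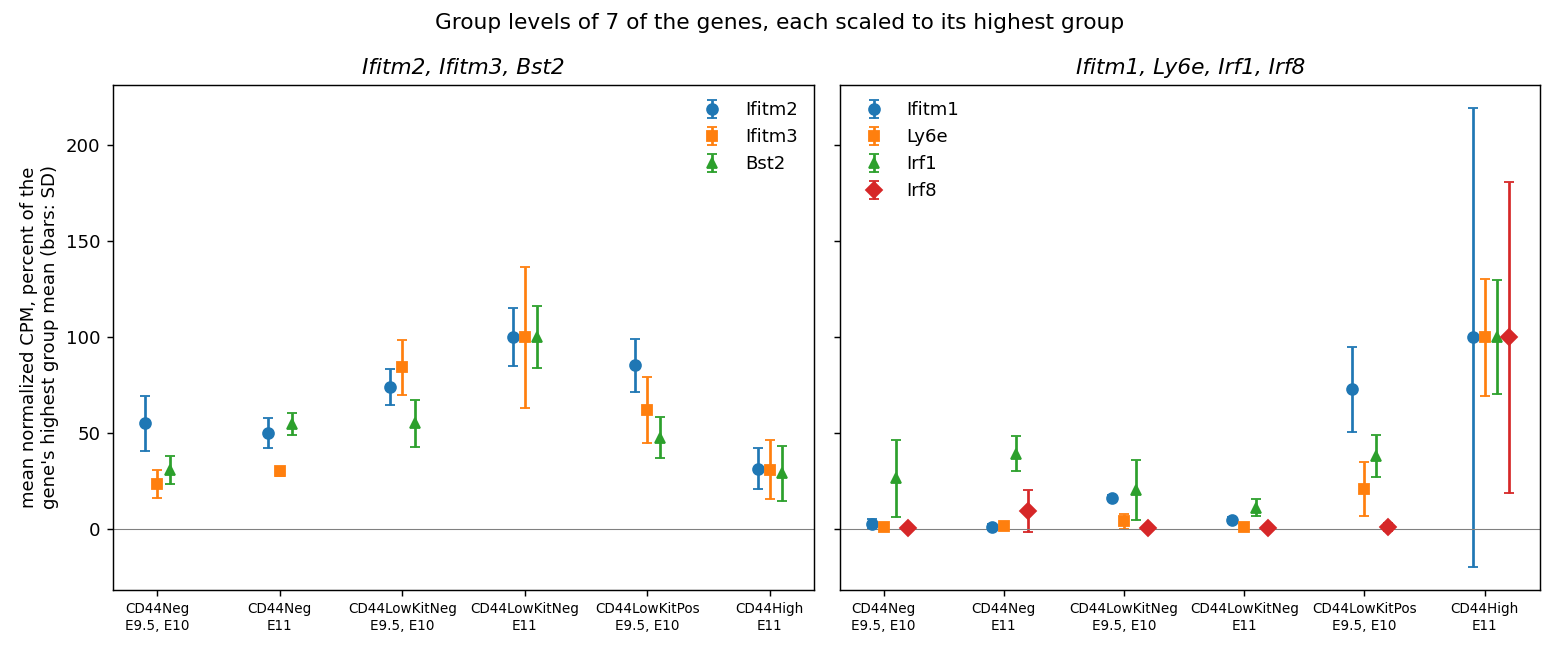
Group means of 7 genes, each as a percentage of its own highest group mean (vertical axis, bars are SD), over the 6 groups of population and day (horizontal axis). Ifitm2, Ifitm3 and Bst2 reach 100% in CD44LowKitNeg cells at E11 and 29.2% to 31.5% in CD44High cells, and the other 4 genes reach 100% in CD44High cells. The Ifitm1 mean there has an SD of 119% and is carried by 1 library at 476 CPM.

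Among the LY6 genes, Ly6e was the one measured at appreciable levels. CD44Neg libraries held 0 to 12.7 CPM with a median of 3.03 at E9.5 and E10, and 11.4, 7.004 and 3.72 at E11. CD44LowKitNeg libraries held 1.62 at E9.5, 38.6 and 18.4 at E10, and 0.807, 14.6 and 0 at E11. CD44LowKitPos libraries held 26.2 at E9.5 and 153 and 116 at E10, all above the CD44Neg libraries, which reached 12.7 and 12.05 on those days. In this comparison 4 of the 9 genes did not overlap, against 11.7% of all genes. The log2 fold change was 4.29 ± 0.97 (SE) with an adjusted p of 0.00809. The call was lost in 16 of 26 alternative fits, with an adjusted p of 0.0166 in the Wald test of DESeq2 0.0194 with 9 means of population and day, and 0.0102 to 0.0484 without CD44Neg replicate 1, 2, 3, 4, 5, 7, 8 or 9, CD44LowKitNeg replicate 16, CD44LowKitPos replicate 17 or 18, or any 1 CD44High library, although the log2 change was at least 3.63 in all of them.

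CD44High libraries held the highest Ly6e levels, 300.5, 539 and 553 CPM. All lay above every other library, by 6.47 ± 1.46 (SE) on the log2 scale from CD44LowKitNeg cells (adjusted p 0.00183) and by 6.00 ± 1.44 (SE) from CD44Neg cells at E11 (adjusted p 0.00493). The former was 9.99 without CD44LowKitNeg replicate 12, the library at 14.6 CPM, and 5.85 without replicate 13. It was lost as a call without CD44LowKitNeg replicate 11 (0.0125), and the latter without CD44Neg replicate 1, 2 or 3 or CD44High replicate 21 or 22 (0.0117 to 0.0356). Between CD44High and CD44LowKitPos cells, where 5 of the 9 genes and 23.9% of all genes did not overlap, the adjusted p of Ly6e was 0.323.

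Ly6a was detected in 5 of the 22 libraries. It reached 5.88 CPM in 1 CD44Neg library of E9.5, 1.62 and 2.98 in 1 CD44LowKitNeg library of E9.5 and 1 of E11, and 3.57 and 4.002 in both CD44LowKitPos libraries of E10. It was at 0 in all 3 CD44High libraries, where 3 counts would have been 0.736 CPM on average. Ly6c1 was low as well, with 3.56 to 5.84 CPM in the 3 CD44Neg libraries of E11 and 0 counts in all 3 CD44High libraries. The mean of CD44Neg cells at E11 was therefore at least 6.53-fold higher than the 3-count limit of the CD44High libraries, averaged over the 3, with an adjusted p of 0.0519. In that comparison 6 of the 9 genes did not overlap, against 37.3% of all genes. Of the stretches of 50 bases in Ly6c1, 32.8% occur in other genes, mainly Ly6c2 and Ly6a, and Ly6c2 had 10 counts summed over all libraries.

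Irf1 was present in all 22 libraries at low levels. The CD44Neg libraries of E9.5 and E10 ranged from 1.34 to 25.3 CPM with a median of 9.37, and those of E11 held 15.1, 13.6 and 20.8. CD44LowKitNeg libraries held 6.61, 3.36 and 15.96 CPM at the earlier days and 5.24, 2.72 and 6.20 at E11, below all CD44Neg libraries of E11 with an adjusted p of 0.17. CD44LowKitPos libraries held 20.8, 15.1 and 11.8 CPM. CD44High libraries held 29.3, 41.8 and 54.1 CPM, above every other library. The log2 difference from CD44LowKitNeg cells at E11 was 3.14 ± 0.82 (SE) with an adjusted p of 0.00546. Leaving out any 1 of the 6 libraries compared moved the adjusted p to between 0.0114 and 0.0324. Against CD44Neg cells at E11 the adjusted p was 0.248.

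Irf8 was low outside CD44High cells. It was at 0 in 10 of the 19 other libraries, and the highest of these was a CD44Neg library of E11 at 14.7 CPM. CD44High libraries held 28.5, 46.1 and 133 CPM, above every other library. The log2 difference from CD44LowKitNeg cells at E11 was 6.77 ± 2.15 (SE) with an adjusted p of 0.0204, which missed the threshold and passed it in 1 of 26 alternative fits, without CD44Neg replicate 4 (0.00946). The CD44LowKitNeg libraries of E11 held 0, 1.81 and 0 CPM, so 14 counts of replicate 12 set the size of this difference, which was 11.6 without that library, smaller without CD44LowKitNeg replicate 11 or 13, and smallest, at 5.80, without CD44High replicate 22. The macrophage marker sum took the same order in these 3 libraries, 3270, 4280 and 4902 CPM, as did Irf1 and Ly6e and also Ifitm3 and Bst2, which were low there, while Ifitm1 took the reverse order. The committed blood markers, at 1245, 2055 and 2451 CPM, took the macrophage order too. With 3 libraries this is given as values, and the part of other cells' transcripts in these levels was not tested. The 5 granulocyte markers summed to 7797, 985 and 2345 CPM in the same libraries, an order that Ifitm1 (476, 114 and 17.4) did not follow. The 6 mesenchyme markers summed to 209, 131 and 0.272 CPM there, the same order as Ifitm1. Epithelial markers (19.8, 17.6 and 4.35 CPM) and neural markers (12.3, 5.86 and 0 CPM) took that order as well.

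**Figure D4:**
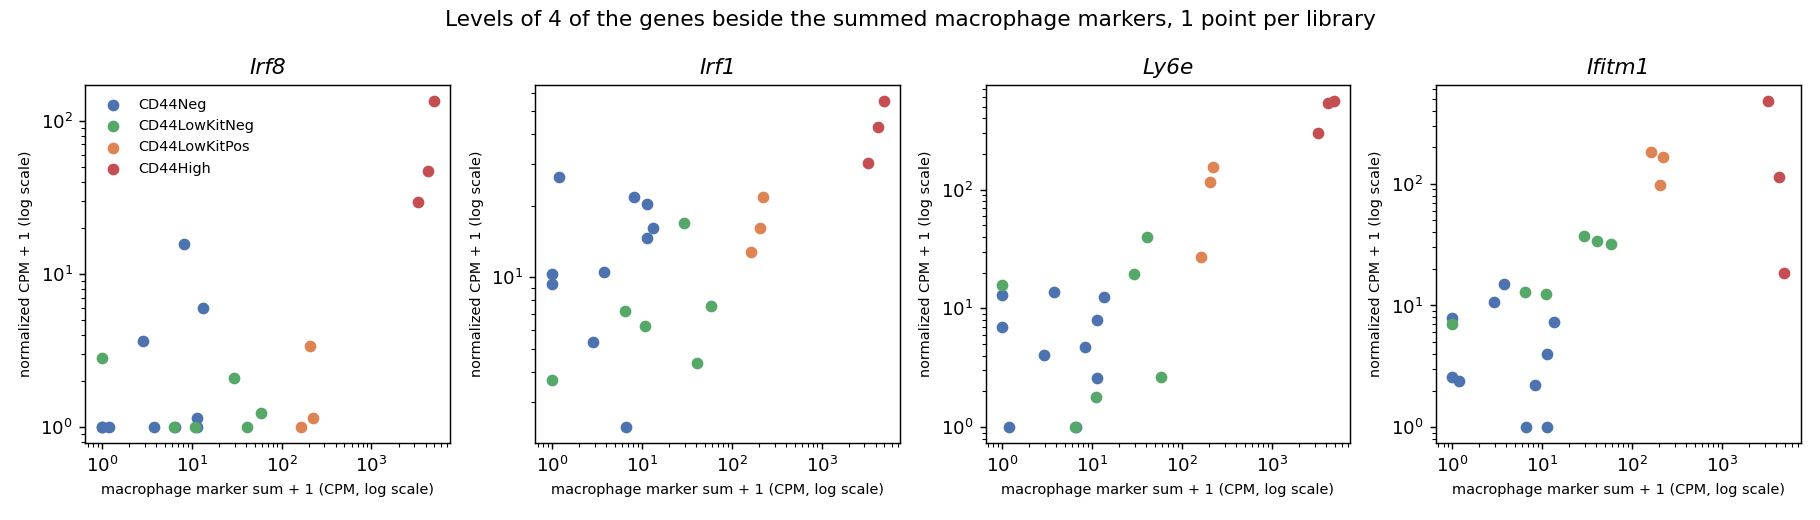
Normalized CPM plus 1 of Irf8, Irf1, Ly6e and Ifitm1 (vertical axes, log scale) against the summed CPM plus 1 of 8 macrophage markers (horizontal axis, log scale), 1 point per library. The 3 red CD44High points stand at sums of 3270 to 4902 CPM, apart from all other libraries, and the orange CD44LowKitPos points at 164 to 222 CPM.

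None of the 9 genes was called between E11 and the earlier days within a population, and E9.5 was not tested against E10. Between E11 and the earlier days, 0.00772% of all genes were called in CD44Neg cells and 1.2% in CD44LowKitNeg cells. At an unadjusted p under 0.05 the counts were 2 of 9 in CD44Neg cells, Bst2 and Irf8, and 1 of 9 in CD44LowKitNeg cells, Bst2, beside 1169 and 2356 of all 12949 genes, and the Wald test of DESeq2 called none in either. All 3 CD44Neg libraries of E11 lay above all 7 earlier ones for 1 gene, Bst2 (4.99% of all genes did not overlap), with an adjusted p of 0.309. The CD44LowKitNeg libraries did not overlap between stages for Bst2, higher at E11, and Ifitm1, lower at E11 (22.3% of all genes), with adjusted p of 0.16 and 0.387. The difference between CD44LowKitNeg and CD44Neg cells was not called as depending on stage for any of the 9 genes, against 0.0849% of all genes. There the unadjusted p was under 0.05 for 0 of 9 and for 1273 of all 12949 genes, and DESeq2 called 0 of 9.

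Compared between genes, per kilobase of exon, Ifitm2 had the highest mean of the 9 in each of the 6 groups. Its scale is uncertain because 48.5% of its stretches of 50 bases are shared, a larger share than for Ifitm3 and Ifitm1. In CD44LowKitNeg cells at E11 it averaged 978 ± 148 CPM per kb (SD, n = 3), against 495 ± 181 for Ifitm3, 140 ± 22.5 for Bst2 and 8.97 ± 2.96 for Ifitm1. In CD44High cells the order was Ifitm2 at 308 ± 104 CPM per kb, Ifitm1 at 185 ± 221, Ifitm3 at 154 ± 75.3 and Ly6e at 123 ± 37.5. The ranges of mean ± SD did not overlap between Ifitm2 and Ly6e, and each neighbouring pair in this order overlapped. Irf1 and Irf8 averaged 10.5 ± 3.12 and 9.81 ± 7.93 CPM per kb there.

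The pathway around these genes was described with lists of interferon genes. The 14 interferon ligands of the list were too low to be tested in any comparison. Ifngr1, the ligand-binding chain of the interferon gamma receptor, rose from 91.9 ± 28.8 CPM (SD, n = 7) in CD44Neg to 200 ± 21.8 in CD44LowKitNeg cells of E9.5 and E10 (adjusted p 0.00432), to 234 ± 48.5 in CD44LowKitPos cells (0.000647), and at E11 from 115.5 ± 10.6 in CD44Neg to 426 ± 45.7 in CD44High cells (4.62e-05). Ifnar1, a chain of the type I interferon receptor, was not called by edgeR in any comparison, with group means of 67.3 to 170 CPM, and was called by DESeq2 between CD44LowKitPos and CD44Neg cells. Isg15, a ubiquitin-like protein strongly induced by interferon, averaged 0.102 to 1.26 CPM and was too low to be tested.

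Of 16 tested receptor and JAK-STAT genes, 1 was called between CD44LowKitNeg and CD44Neg cells at each stage, Ifngr1 at E9.5 and E10 and the kinase Jak2 at E11, both higher in CD44LowKitNeg (6.25% each time, against 2.2% and 2.89% of all genes). At an unadjusted p under 0.05 there were 8 at the earlier days, 3 of them higher, and 5 at E11, 2 of them higher. The list's median log2 change was -0.17 at the earlier days and 0.43 at E11, against -0.01 and 0 over all genes. In CD44LowKitPos against CD44Neg cells 2 of 16 rose (12.5%, against 2.95% of all genes), Ifngr1 and the phosphatase Ptpn6. In CD44High cells Ifnar2, the other type I receptor chain, rose against CD44LowKitNeg cells (174 ± 39.4 against 43.2 ± 8.80 CPM, adjusted p 0.0054), 1 of 16 genes, a lower share than the 18.5% of all genes. Ifngr1, Ifnar2 and Ptpn6 rose against CD44Neg cells, 3 of 16 against 9.92% of all genes, and Ifngr2 rose against CD44LowKitPos cells, 1 of 16 against 3.42%.

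Of 39 tested interferon-stimulated genes outside the 9, edgeR called 0 between CD44LowKitNeg and CD44Neg cells at either stage. At an unadjusted p under 0.05 there were 11 at E9.5 and E10, all higher in CD44LowKitNeg, beside 3132 of all 12949 genes, and 5 at E11, of which 3 were higher, beside 2942 of all genes. DESeq2 called 1, Dtx3l, at the earlier days and 0 at E11. The list's median log2 change was 0.60 at the earlier days and 0.38 at E11. In CD44LowKitPos against CD44Neg cells 1 of 39 (2.56%, against 2.95% of all genes) rose, Slfn2 (55.4 ± 26.5 against 1.59 ± 2.04 CPM, adjusted p 0.00281). In CD44High against CD44LowKitNeg cells 4 of 39 rose (10.3%), a lower share than the 18.5% of all genes called in either direction. These were Samhd1, a nucleotide-cleaving antiviral enzyme (120 ± 20.8 against 15.8 ± 2.57 CPM), Ifi204, Mx1 and Cxcl10. Ifi204 and Mx1 were at 0 in CD44LowKitNeg cells at E11 and at least 211-fold and 53.5-fold higher in CD44High cells, against the limit of 3 counts per library. Cxcl10 rested on 1 library, with CD44High values of 0.792, 1.07 and 300.4 CPM. DESeq2 called 2 of the 4, Ifi204 and Samhd1. Mx1 and Samhd1 rose in CD44High cells against CD44Neg and against CD44LowKitPos cells as well (5.13% of the list each time, against 9.92% and 3.42% of all genes). DESeq2 called Samhd1 in both of these comparisons and Mx1 in neither.

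Of 14 tested antigen presentation genes, B2m, the light chain of MHC class I, was called in 6 comparisons. It averaged 349 ± 46.4 CPM in CD44Neg cells (SD, n = 7) and 1112 ± 205 in CD44LowKitNeg cells of E9.5 and E10 (n = 3), and 690 ± 71.5, 1393 ± 258 and 2488 ± 420 CPM at E11 in CD44Neg, CD44LowKitNeg and CD44High cells. Its log2 rise between CD44Neg and CD44LowKitNeg cells was 1.67 ± 0.17 (SE) at the earlier days (adjusted p 1.56e-05) and 1.01 ± 0.21 at E11 (0.00458). In CD44LowKitPos cells the log2 rise of B2m over CD44Neg was smaller, 0.80 ± 0.17 (SE, adjusted p 0.00599). Between CD44LowKitPos and CD44LowKitNeg cells B2m was called by DESeq2 and not by edgeR. In CD44High cells 5 of the 14 (35.7%) rose against CD44LowKitNeg and 5 against CD44Neg cells, where 18.5% and 9.92% of all genes were called. Each time these were B2m, the proteasome activator subunits Psme1 and Psme2, and the immunoproteasome subunits Psmb8 and Psmb10. DESeq2 did not call Psmb8 against CD44LowKitNeg cells. Psmb8 averaged 118 ± 57.7 CPM in CD44High cells and was at 0 in CD44Neg cells at E11. In CD44LowKitPos against CD44Neg cells 3 of the 14 rose (21.4%, against 2.95% of all genes), Psme1, B2m and Psmb10. The list median in CD44High against CD44LowKitNeg cells was 1.80 on the log2 scale, against 0.05 over all genes.

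**Figure D5:**
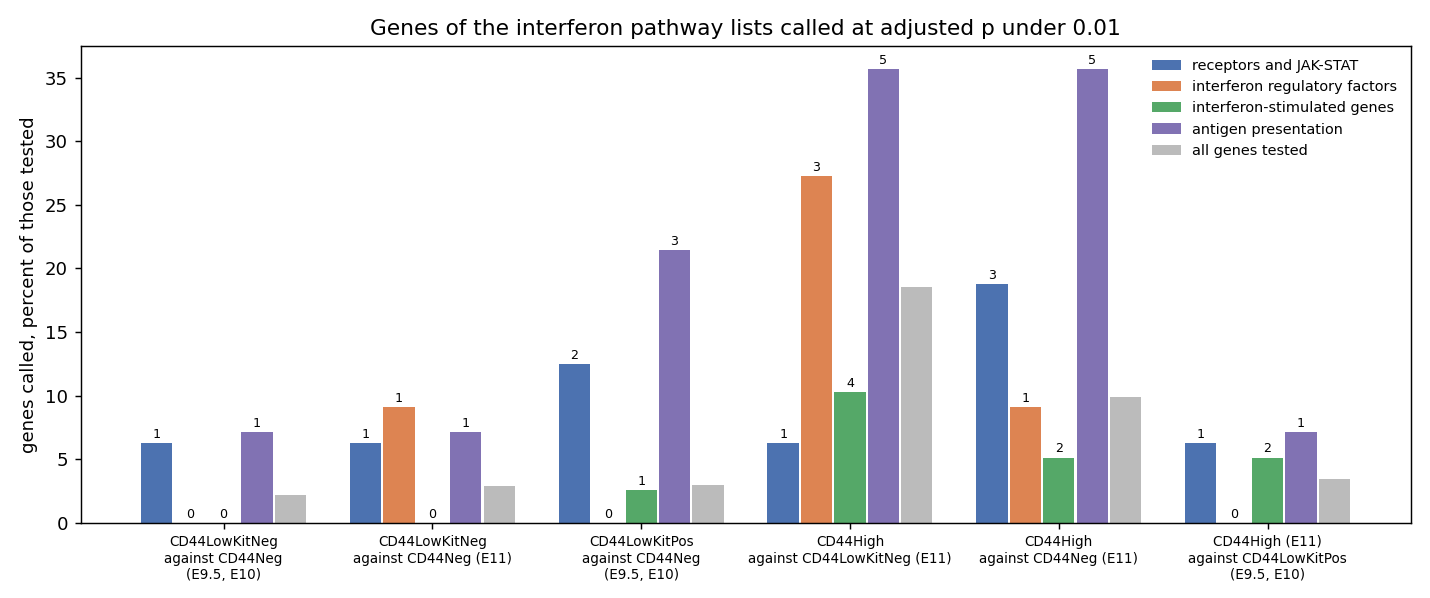
Percentage of tested genes called (vertical axis, starting at 0) in 4 interferon pathway lists and among all genes tested, for 6 comparisons (horizontal axis), with the number of genes called above each bar. No interferon-stimulated gene of the list is called between CD44LowKitNeg and CD44Neg cells, and 5 of 14 antigen presentation genes are called in CD44High cells at E11 against each endothelial population.

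Among the interferon regulatory factors beside Irf1 and Irf8, Irf5, a factor of myeloid cells, rose from 0 counts in CD44LowKitNeg and CD44Neg cells at E11 to between 24.3 and 155 CPM in CD44High cells. Among 6 tested IFITM genes only the members described were called, and among 13 tested LY6 and uPAR family genes Ly6h, Gpihbp1, Lypd6 and Plaur were lower and Ly6e higher in CD44High than in CD44LowKitNeg cells, 5 of 13 where 18.5% of all genes were called. Gpihbp1, which carries lipoprotein lipase across capillary endothelium, and Ly6h were at 0 in CD44High cells and also lower than in CD44Neg cells at E11. Plaur, Psmb8 against CD44LowKitNeg cells and Psmb10 against CD44Neg cells were each the fifth of their list, outside the naming rule, and are named after their values were seen.

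As a description over the 22 libraries, which share populations and days, the log2 levels of the 9 genes were most alike for Ifitm3 and Bst2 (Pearson's r = 0.74), Ifitm2 and Ifitm3 (0.73), and Ifitm1 and Ly6e (0.67). Ifitm1 and Ifitm2, neighbours on chromosome 7, had r = 0.16. Across all genes tested, the most alike was Dsp for Ifitm3 (0.87), Nudt14 for Ifitm2 (0.90), Aasdhppt for Ifitm1 (0.86) and Git2 for Bst2 (0.85). For Ly6e it was Fcer1g (0.88), for Irf1 Akap13 (0.85) and for Irf8 Slfn8 (0.87).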

How the data were processed

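SMART-Seq2 libraries of 25 sorted cells were sequenced on an Illumina NextSeq. The authors trimmed reads with FASTX, aligned them with RNA STAR and counted reads per gene with htseq-count; the deposited values are these raw counts, on mm10 per the labels, whose processing notes name FastQC and HTSeq. Tool versions, annotation and strand setting are not given in the sources used here, so reads shared by related or overlapping genes could be lost or assigned to either. Counts carry no molecular identifiers after 14 cycles of amplification. All 22 columns matched 1 library each by name.

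Counts were filtered with filterByExpr (minimum count 10), scaled with TMM and tested with edgeR 4.0.16 (glmQLFit, glmQLFTest, R 4.3.3) in 1 fit of 6 groups of population and day, with Benjamini-Hochberg adjustment over 12949 of 24454 genes and a threshold of 0.01. The standard error of a fold change was derived from its F statistic. The study's Wald test of DESeq2 (version 1.42.0), other size factors, no filter, 9 means of population and day, a threshold of 0.05 and leaving out each library were alternatives. The test was also run on simulated counts, and that outcome is not reported here. Pairs of libraries of 1 population and day differed by 17.0 to 85.2 times counting noise (chi-square per degree of freedom, 20 pairs), so none was a duplicate. CD44Neg replicate 6 stood apart from the other CD44Neg libraries of E9.5, at 61.1 to 85.2 against 17.1 to 20.4 among those. It also had the lowest Rn45s share (1.92%) and the fewest genes detected (10825) of all libraries. Named pathway genes were the up to 4 called with the smallest adjusted p in each list and comparison, beside a fixed set. The members and lists were chosen with earlier results of these data known. Exon lengths and shared stretches of 50 bases came from GENCODE vM21, start windows and gene positions from RefSeq GRCm38.p6. Likeness between genes is Pearson's r of log2 CPM with a prior count of 2. Some results of the pathway and marker lists are not reported here.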

Additional observations from a re-analysis of the deposited data

Results flagged for a closer look

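In the 7 CD44Neg libraries of E9.5 and E10, 2 of the 9 genes had 1 library far from the others, judged by Dixon's gap test: Ly6a at 5.88 CPM and Irf8 at 2.65 CPM, both in CD44Neg replicate 4. The next highest values were 0 CPM for Ly6a and 0.143 CPM for Irf8, so the gap was the whole range for Ly6a and a share of 0.946 of it for Irf8. The test's rate of about 1 in 20 groups holds for normally spread values and not for groups that are mostly at 0 counts. With every other library at 0, the Ly6a gap is the whole range whatever the value. These flags therefore say only that replicate 4 held reads of genes near 0 in the others. Other groups held too few libraries for this test. Both values come from few reads, 31 and 14 counts.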

How the results depend on the processing

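The 17 member results with an adjusted p under 0.05 kept their direction in all 26 alternatives each. At a threshold of 0.05 in place of 0.01, 2 of the 9 genes were called between CD44LowKitNeg and CD44Neg cells at E9.5 and E10 and 2 at E11, against 1 each. At E11 the Wald test of DESeq2 and the fit of 9 means also called 2. Leaving out 1 library at a time gave 0 to 1 calls between CD44LowKitNeg and CD44Neg at E11, 1 to 3 between CD44LowKitPos and CD44Neg, 3 to 7 between CD44High and CD44LowKitNeg, 0 to 2 between CD44High and CD44Neg, and 0 to 1 between CD44High and CD44LowKitPos. The libraries behind these losses are given with each gene. Ifitm3 between CD44LowKitNeg and CD44Neg at E9.5 and E10, Ifitm1 between CD44LowKitPos and CD44Neg, and Ifitm2 and Bst2 between CD44High and CD44LowKitNeg were called in all 26. The cause of the other losses was not tested.

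Over all genes, a threshold of 0.05 raised the counts to 1160 from 285 (CD44LowKitNeg against CD44Neg, E9.5 and E10), 949 from 374 (the same at E11), 498 from 64 (CD44LowKitPos against CD44LowKitNeg), 892 from 382 (CD44LowKitPos against CD44Neg), 3877 from 2398, 2350 from 1285 and 900 from 443 (CD44High against CD44LowKitNeg, CD44Neg and CD44LowKitPos), 4 from 1 and 500 from 156 (stage in CD44Neg and CD44LowKitNeg) and 29 from 11 (dependence on stage). In the same order DESeq2 called 842, 872, 536, 793, 3086, 1914, 805, 38, 470 and 71. With 9 means the first count was 182, the third 121 and the stage count in CD44Neg 2; with no filter the third was 120 and the stage count in CD44Neg 2. Leaving out 1 library gave, in the same order, 47 to 377, 143 to 397, 6 to 351, 120 to 612, 1713 to 2477, 900 to 1329, 313 to 453, 0 to 3, 43 to 184 and 6 to 21 calls. The lowest count of the third, 6, was without CD44LowKitPos replicate 17 and the highest, 351, without replicate 19. DESeq2's size factors changed the share of higher calls there from 53.1% to 41.6%.

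No paired analysis was possible because no replicate number occurs in more than 1 group. A count of 0 allows at most 0.816 CPM in any library, and the part of depth in the zeros of Ly6a, Ly6c1 and Irf8 was not tested.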
